A study of Mus musculus with 60 samples.

Results

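The acute-phase proteins are a set of plasma and secreted proteins whose genes are known to respond to inflammation. Expression of 10 of their genes was measured: the serum amyloid A genes Saa1, Saa2, Saa3 and Saa4, Lcn2, Orm1, Orm2, Hp, Hpx and Apcs. They were found through the RefSeq accession that each probe of the microarray carries, which gave 1 probe for each gene and 10 of 55681 probes in all. Lung, liver and forestomach came from 20 male mice of the Muta Mouse strain, which carries a bacterial reporter transgene for mutation assays. The mice were about 10 weeks old and housed singly, and RNA was taken from random sections of each tissue. All mice were gavaged daily for 28 days with olive oil, which carried benzo(ghi)perylene (BghiP), a polycyclic aromatic hydrocarbon, at 0, 6.25, 12.5 or 25 mg/kg-bw/day. These groups are named D0 (vehicle), D1, D2 and D3 and held 5 mice each (mice 1 to 5, 6 to 10, 11 to 15 and 16 to 20), and tissues were collected 72 hours after the final dose. Each of the 60 arrays held 1 tissue of 1 mouse, labelled with Cy5, against a common reference RNA pooled from mouse cell lines and labelled with Cy3. Values are log2 Cy5/Cy3 ratios unless Cy5 signal is named, so they compare samples for a gene and are not compared between genes.

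In inflammation, interleukin 6, interleukin 1 and tumour necrosis factor act on hepatocytes, where STAT3, NF-kB and C/EBP factors raise transcription of acute-phase genes. In the mouse, Saa1 and Saa2 encode the main inducible serum amyloid A proteins, apolipoproteins that liver adds to high density lipoprotein, and Saa3 is the form made largely outside hepatocytes, by macrophages, fat cells and epithelia. Saa4 is the constitutive form. Lcn2 encodes lipocalin 2, which binds bacterial siderophores and is made by neutrophils, epithelia and stressed hepatocytes. Orm1 and Orm2 encode orosomucoids, plasma lipocalins that bind drugs. Hp and Hpx encode haptoglobin and hemopexin, which scavenge free haemoglobin and haem, and Apcs encodes serum amyloid P component, a pentraxin.

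Upstream sequence was available for 8 of the 10 genes in a RefSeq promoter table of build GRCm38.p6. The 250 bases before the start site are printed here for the genes that varied together in liver (Saa1, Saa2, Saa3 and Lcn2) and for Saa4, the constitutive neighbour of Saa1 to Saa3 on chromosome 7. Capitals mark matches on either strand to GGG, any 5 bases and CC (NF-kB class), to TTNNGNAA (C/EBP class) or to TTCNNNGAA (STAT class).
Saa1, chr7:46742981-46743230, minus strand: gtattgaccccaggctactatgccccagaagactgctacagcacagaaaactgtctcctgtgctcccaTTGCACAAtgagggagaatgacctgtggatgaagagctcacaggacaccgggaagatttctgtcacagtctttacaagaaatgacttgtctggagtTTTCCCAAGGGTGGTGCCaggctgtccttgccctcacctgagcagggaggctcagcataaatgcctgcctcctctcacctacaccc
Saa2, chr7:46751583-46751832, plus strand: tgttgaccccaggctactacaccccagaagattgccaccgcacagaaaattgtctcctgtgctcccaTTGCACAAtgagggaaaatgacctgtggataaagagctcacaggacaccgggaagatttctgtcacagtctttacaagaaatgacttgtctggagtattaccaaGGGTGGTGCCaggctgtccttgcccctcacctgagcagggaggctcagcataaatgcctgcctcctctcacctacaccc
Saa3, chr7:46715677-46715926, minus strand: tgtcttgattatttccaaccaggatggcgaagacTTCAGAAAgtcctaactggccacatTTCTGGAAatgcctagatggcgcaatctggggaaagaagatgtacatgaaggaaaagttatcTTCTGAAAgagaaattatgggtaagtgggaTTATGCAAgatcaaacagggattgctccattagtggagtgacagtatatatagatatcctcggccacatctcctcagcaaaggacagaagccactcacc
Lcn2, chr2:32387740-32387989, minus strand: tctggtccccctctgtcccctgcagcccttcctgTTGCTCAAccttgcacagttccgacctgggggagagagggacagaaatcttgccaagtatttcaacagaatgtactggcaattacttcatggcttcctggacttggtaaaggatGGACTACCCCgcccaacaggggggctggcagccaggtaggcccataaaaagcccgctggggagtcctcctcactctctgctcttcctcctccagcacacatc
Saa4, chr7:46732604-46732853, minus strand: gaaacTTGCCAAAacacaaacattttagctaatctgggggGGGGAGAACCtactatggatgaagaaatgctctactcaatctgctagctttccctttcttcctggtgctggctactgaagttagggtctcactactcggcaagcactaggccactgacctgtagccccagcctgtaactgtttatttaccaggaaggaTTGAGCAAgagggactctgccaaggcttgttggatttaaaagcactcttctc
The NF-kB class letters began at -78 in Saa1, -79 in Saa2, -102 in Lcn2 and -210 in Saa4, counted from the start site, and did not occur in the Saa3 window. The C/EBP class letters occurred in all 5 windows, with 4 matches in Saa3, and in Saa1 a match abutted the NF-kB class match. No STAT class match lay in these 5 windows. Of the 32851 promoters of this length in the table, 45.8% held the NF-kB class letters, 36.8% the C/EBP class letters and 7.02% the STAT class letters, so the first 2 patterns are common and a match is only a description of the sequence. The Saa1 and Saa2 windows shared 79.1% of their bases when laid side by side without gaps, against 32.2% for Saa1 and Saa3.

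Depth and sample identity were examined before the comparisons. The share of probes well above background in Cy5 lay between 21.3% and 58.6% over the 60 arrays, and lung and forestomach arrays shared 5 slides while liver arrays were on 3 others. The labelled tissues carried their defining markers. The mean log2 ratio over 10 hepatocyte markers was 7.54 to 8.43 in liver, that over 8 lung epithelial markers was 5.8 to 6.65 in lung, and that over 9 squamous markers was 3.48 to 4.96 in forestomach. Some arrays also held markers of another tissue. In the forestomachs the mean over 9 glandular stomach markers ran from 0.23 to 7.87 (median 5.26), with group medians of 1.01 at D0, 7.27 at D1, 6.6 at D2 and 4.44 at D3, so that most of them carried these markers and the groups differed in how many did. Lung of mouse 20 (D3) had a hepatocyte marker mean of 3.96, where the other lungs reached 1.69, and lung of mouse 1 (D0) had a squamous marker mean of 3.46, where the others reached -0.07, and a skeletal muscle marker mean of 4.75, where the others reached 0.45. Forestomach of mouse 15 (D2) had a hepatocyte marker mean of 4.00, against at most 2.31 in the others, and forestomach of mouse 2 (D0) had a lung epithelial marker mean of 4.70, against at most 1.99. In bulk tissue, fewer cells of a type and less RNA per cell cannot be told apart.

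The first comparison asked where these genes were expressed without exposure. In the vehicle mice all 10 were higher in liver than in forestomach, and 9 of 10 were higher in liver than in lung, Lcn2 being the exception. Of these genes, Saa2, Saa4 and Apcs passed the filter on dim probes in liver only, and Orm1 and Orm2 in liver and forestomach but not in lung, so that their inclusion already required a high liver or forestomach signal and their direction is a description. Of all 33255 probes tested, 44.4% were called between lung and liver (19% lower in lung) and 39.2% between liver and forestomach (18.2% higher in liver), at an adjusted p of 0.05 or less (limma with Benjamini-Hochberg adjustment) and at least 1.5-fold. Hpx had ratios of 9.64 to 10.3 in the 5 D0 livers and -0.33 to 0.00 in the 5 D0 lungs, so that the liver exceeded the lung by 10.1 ± 0.60 on the log2 scale (SE, adjusted p = 2.5e-21 by limma). No D0 liver overlapped any D0 lung or forestomach for this gene. Hpx was well above background in 4 of the 5 D0 lungs, at a mean log2 Cy5 of 6.53, near the array floor (6.02 for the lung of mouse 1). Background was not subtracted, so the size of the difference is approximate. For Saa2, Saa4 and Orm2 no D0 lung was well above background, and the Cy5 signal of liver was at least 586-fold, 147-fold and 527-fold higher than that of lung, measured against the array floor after loess and scaling between arrays. In forestomach, Saa2, Saa4 and Apcs were in the same state, and the Cy5 signal of liver was at least 560-fold, 132-fold and 43.3-fold higher. These are bounds on Cy5 signal only and, without dye swaps, are open to dye bias. They do not bound the Cy5/Cy3 ratio. Liver arrays were on slides of their own, so tissue and slide cannot be told apart in comparisons with liver. On the slides that they shared, lung arrays lay in row 1 and forestomach arrays in row 2. Tissue and row therefore cannot be told apart between lung and forestomach.

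Outside the liver the genes behaved in different ways. Hp was present in every lung, with D0 ratios of 5.01, 5.51, 5.56, 5.57 and 6.6, below the D0 livers (6.71 to 7.96) by 1.63 ± 0.47 (adjusted p = 0.0021). The 2 ranges did not overlap, and their gap was narrow beside that of Hpx. In forestomach the D0 ratios of Hp were 0.21, 0.41, 0.47, 2.46 and 3.96, so lung exceeded forestomach by 4.15 ± 0.47 (17.7-fold, adjusted p = 1.0e-10). The highest of these was mouse 2, whose forestomach carried the lung markers given above. The next, mouse 5, had a fat cell marker mean of 4.84, where the other 19 forestomachs reached 3.13. Without mouse 2 the lung exceeded the forestomach by 4.79, so the call did not rest on it.

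Lcn2 followed another order. Its D0 ratios were 1.33, 1.34, 1.5, 1.62 and 1.94 in lung, -1.21 to -0.41 in forestomach and -0.61 to 2.89 in liver. Lung exceeded forestomach by 2.35 ± 0.46 (5.09-fold, adjusted p = 2.4e-05), with no overlap. Lung exceeded liver by 1.04 ± 0.46 (adjusted p = 0.0446), but the ranges overlapped, and this call was kept in 12 of the 20 fits that left out 1 mouse, with adjusted p up to 0.194 (without D0 mouse 3). Liver exceeded forestomach by 1.31 ± 0.46 (adjusted p = 0.0132), and by 0.81 (adjusted p = 0.128) without D0 mouse 2, whose liver held the highest value. The order of lung and liver for Lcn2 was therefore not settled within the spread.

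Saa3 lay below the reference in all tissues, with D0 means of -3.95 ± 0.46 (SD, n = 5) in lung, -2.27 ± 1.07 in liver and -3.67 ± 1.04 in forestomach. Liver exceeded lung by 1.68 ± 0.47 (SE, adjusted p = 0.0017) and forestomach by 1.40 ± 0.47 (adjusted p = 0.0091), the latter at adjusted p = 0.0681 without D0 mouse 5. Saa3 was well above background in only 2 of the 5 D0 forestomachs, so that difference rests partly on values at background. Saa1, by contrast, exceeded the reference only in liver at D0, at 6.15 ± 0.79 (SD) against -1.01 ± 0.65 in lung and -0.52 ± 0.48 in forestomach. Between lung and forestomach 4 of the 10 genes were called, where 33.3% of all probes were. Of the other 6, Saa2, Saa4 and Apcs were well above background in 0 or 1 of 5 D0 arrays in both tissues, were tested only because of their liver signal, and have no measured difference here. Of the 4 called, Lcn2 and Hp were higher in lung, and Orm1 and Orm2 higher in forestomach. Orm2 was well above background in 0 of 5 D0 lungs and 3 of 5 D0 forestomachs, and the Cy5 signal of forestomach was at least 1.95-fold higher, a bound that was not tested. Orm1 was well above background in 1 of 5 D0 lungs and 3 of 5 D0 forestomachs, so the size of its difference is not given. Both genes failed the filter in lung, as given above, and entered this comparison only through their signal in other tissues. Their calls are therefore only a description of direction. For Orm1 and Orm2 the forestomach difference rested on D0 mouse 5, at 2.75 and 3.08, the array with the high fat cell markers. Without that mouse neither was called (adjusted p = 0.0702 for Orm1 and 0.0987 for Orm2).

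**Figure D1:**
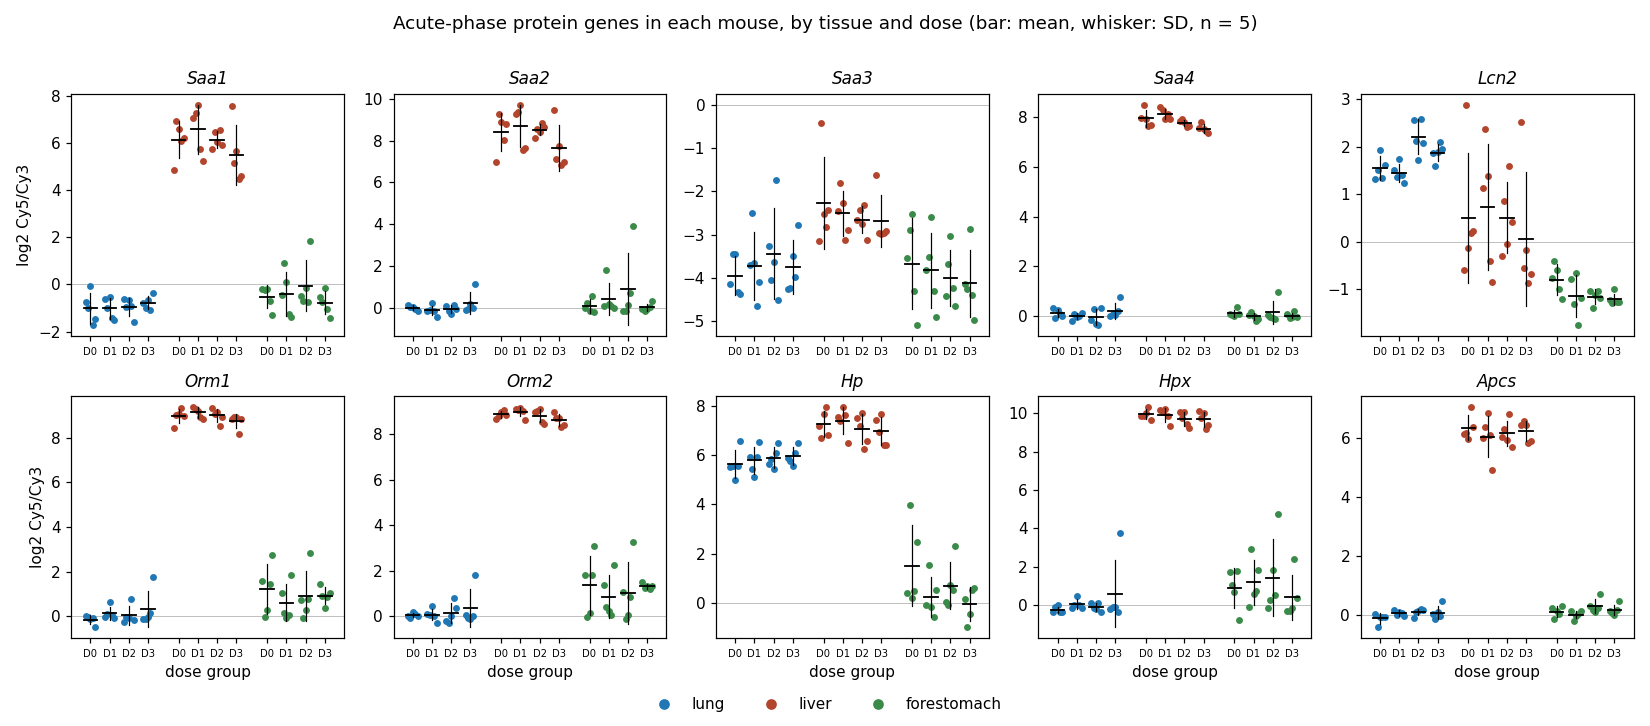
Log2 Cy5/Cy3 ratio (vertical axis) of each acute-phase gene in each of the 60 arrays, by dose group and tissue, with the mean and SD of 5 mice. Liver lies far above the other tissues for 7 of the genes, Hp is also high in lung, and Lcn2 and Saa3 span the tissues closely.

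Exposure was examined next, by testing each dose against vehicle within a tissue. None of these genes was called at any dose in any tissue (0 of 5 tested in lung, 0 of 10 in liver, 0 of 7 in forestomach), and limma called 0% of all probes in each of the 9 comparisons. Values of p here are from limma with Benjamini-Hochberg adjustment over all probes tested in the tissue. At an unadjusted p under 0.05 there were 0, 1 and 1 of the genes at D1, D2 and D3 in lung, 0, 0 and 1 in liver, and 0, 0 and 2 in forestomach. Over all probes the counts at that p were 690, 1055 and 1493 of 31022 in lung, 785, 1075 and 3142 of 25893 in liver, and 2347, 917 and 377 of 25070 in forestomach. The 1 of 10 in the D3 livers was thus no more than the share of all probes. The 1 of 5 in lung at D2 and at D3 and the 2 of 7 in forestomach at D3 were above that share, but each rests on 1 or 2 genes. The genes not tested were those well above background on fewer than 5 of the 20 arrays of the tissue. In lung these were Saa2 (1 array), Saa4 (1), Orm1 (4), Orm2 (4) and Apcs (2), and in forestomach Saa2 (3), Saa4 (1) and Apcs (1).

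In lung, Lcn2 had the lowest unadjusted p. Its ratios were 2.56, 2.11, 1.71, 2.58 and 2.07 in mice 11 to 15 (D2), against 1.33 to 1.94 at D0 and 1.23 to 1.73 at D1. All 5 D2 values lay above the D0 mean, and 1 of them lay within the D0 range. The difference was 0.66 ± 0.16 (1.58-fold, 95% interval 0.33 to 0.99, unadjusted p = 0.00047, adjusted p = 1.00 in limma), or at an adjusted p of 0.139 with slide as a block. At D3 the ratios of 1.58 to 2.09 were also all above the D0 mean, and the difference was 0.33 ± 0.16 (interval 0.00 to 0.66, adjusted p = 0.998). The slope of Lcn2 on dose in lung was 0.018 ± 0.0081 log2 units per mg/kg-bw/day (adjusted p = 0.998). Neutrophils carry lipocalin 2 in their granules, and the mean over 10 neutrophil markers had a median of 1.71 (1.08 to 2.89) in the D2 lungs and of 1.80 (1.12 to 2.45) in the D0 lungs. The D2 lung with the highest neutrophil marker mean, mouse 14, also held the highest Lcn2 (2.58) and Saa3 (-1.74) of the 20 lungs. The part of neutrophils in these values was not tested.

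None of the other 4 tested genes in lung had an unadjusted p under 0.05. At D3 the differences were 0.23 ± 0.27 for Saa1, 0.20 ± 0.44 for Saa3, 0.32 ± 0.28 for Hp and 0.83 ± 0.52 for Hpx. The value for Hpx came from mouse 20, whose ratio of 3.75 stood beside -0.34 to -0.08 in the other 4 D3 mice, and without that mouse the difference was 0.05. All 5 genes were nominally above vehicle at D2 and at D3, where 51.6% and 52.6% of all probes were. Saa1 at D2 was at -0.12 without D0 mouse 4, and Saa3 at D3 at -0.04 without mouse 20, and each interval other than those of Lcn2 spanned 0.

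In liver the 10 genes lay above vehicle at D1 in 7 cases, at D2 in 2 and at D3 in 0, where 49.9% of all probes were above vehicle at D3. The doses were not spread evenly over the liver slides. The slide with the lowest means of Orm2, Hp and Hpx held mice 2, 5, 10, 14, 15, 19 and 20. That with the highest held mice 3, 4, 8, 9, 13 and 18. The part of slide in the order of 7, 2 and 0 was not tested. The median difference at D3 was -0.35 for the 10 genes and -0.0005 for all probes. The genes were read in the same mice, and in liver many varied together, as given below. They are therefore not independent readings of dose, and such counts and medians are descriptions in each tissue. Saa4 had the lowest unadjusted p (0.0064). Its ratios were 7.58, 7.80, 7.51, 7.45 and 7.35 at D3 and 7.66 to 8.50 at D0, all 5 D3 values lying below the D0 mean and the ranges overlapping only through mouse 17. The difference was -0.41 ± 0.14 (interval -0.69 to -0.13, adjusted p = 0.233), and -0.27 without D0 mouse 2. The slope of Saa4 on dose was -0.020 ± 0.0056 log2 units per mg/kg-bw/day, at an adjusted p of 0.0954, where limma called 0.239% of liver probes (0.0579% upward and 0.182% downward). With slide as a block the slope was -0.022 ± 0.0053 and was called (adjusted p = 0.0350), with 2.62% of probes called. The reference RNA was well above background for Saa4 on 5 of the 20 liver arrays, so the ratio rests on a weak Cy3 signal. The same limit holds for Apcs in liver, with 4 of the 20 arrays.

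Saa1 and Saa2 had the widest differences at D3 in liver, -0.65 ± 0.51 (interval -1.72 to 0.41, adjusted p = 0.646) and -0.78 ± 0.49 (interval -1.80 to 0.24, adjusted p = 0.544). For Saa2 the D3 livers read 9.49, 7.14, 7.74, 6.84 and 6.97, so that mouse 16 lay among the highest of all livers and the other 4 below the D0 median of 8.81. Without mouse 16 the differences were -1.18 for Saa1 and -1.24 for Saa2, and neither was called. With all mice, the mean log2 Cy5 signal went from 16.1 at D0 to 14.72 at D3 for Saa1, and from 15.2 to 13.67 for Saa2. These changes in Cy5 were wider than those of the ratios and were not tested. Cy3 for Saa2 was well above background on 19 of the 20 livers and 0 of the 20 lungs, though the reference RNA was common. Its ratio in liver is therefore not a plain measure. Orm2 was lower by 0.26 ± 0.14, Hp by 0.30 ± 0.32 and Hpx by 0.25 ± 0.20 in the D3 livers, with adjusted p between 0.487 and 0.750. Lcn2 (-0.46 ± 0.69) and Saa3 (-0.42 ± 0.38) changed sign when D0 mouse 2 was left out, to 0.14 and 0.04, and Apcs (-0.11 ± 0.28) did so without D0 mouse 4, at 0.07.

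In forestomach the 7 tested genes were all nominally below vehicle at D3, where 52.2% of all probes were above it. The glandular stomach markers differed between the same groups. All 9 were nominally higher than vehicle at D1 and at D2 (median differences 2.83 and 1.68) and 8 of 9 at D3 (median 0.12, Tff2 0.73 ± 1.58), with 0 called, and their part in the values of the acute-phase genes was not tested. Hp read 0.15, -1.0, -0.48, 0.50 and 0.59 at D3, below the D0 mean in every mouse, and the difference was -1.55 ± 0.64 (interval -2.90 to -0.20, adjusted p = 1.00). The D0 mean was set by mice 2 and 5, and without mouse 2 the difference was -0.94. Lcn2 was lower by 0.42 ± 0.18 (interval -0.80 to -0.04, adjusted p = 1.00), with ratios of -1.30 to -1.0 at D3 and -1.21 to -0.41 at D0. The differences at D2 in Saa1 (0.48 ± 0.47) and Hpx (0.53 ± 0.82) came from mouse 15 and were 0.01 and -0.30 without it. Orm1 and Orm2 differed from D0 at D3 by -0.29 ± 0.54 and -0.05 ± 0.62, and by 0.10 and 0.38 without D0 mouse 5.

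Interaction contrasts over all 60 arrays compared the D3 change of each gene between pairs of tissues. None of the 10 genes was called for any pair of tissues, and 0% of all probes were. This has no bearing on genes that failed the background filter in a tissue of the pair, namely Saa2, Saa4 and Apcs for every pair, and Orm1 and Orm2 for pairs with lung. The lowest unadjusted p was that of Hp between lung and forestomach, where the changes differed by 1.87 ± 0.66 (unadjusted p = 0.0066, adjusted p = 1.00 in limma), and by 1.23 without D0 mouse 2.

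**Figure D2:**
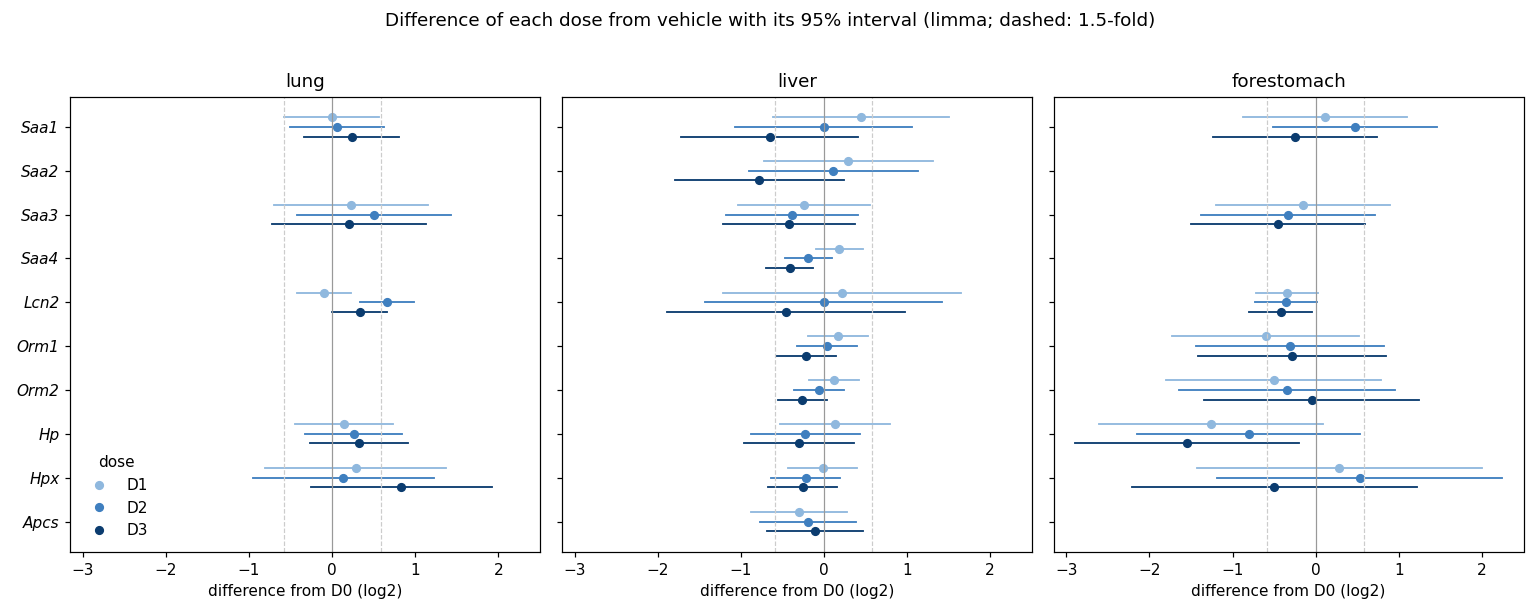
Difference of D1, D2 and D3 from vehicle (horizontal axis, log2) for the acute-phase genes tested in each tissue, with the 95% interval from limma and dashed lines at 1.5-fold. In liver all 10 D3 points lie left of 0, and the intervals of Saa1, Saa2, Saa3 and Lcn2 are the widest there.

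The spread among mice was wide beside the dose differences. In liver the SD of Lcn2 within dose groups was 1.25, above that of 99.9% of liver probes, and its values ran from -0.87 (mouse 19) to 2.89 (mouse 2), a 13.5-fold range. Saa1 spanned 8.92-fold (within-dose SD 0.92), Saa2 7.27-fold (0.88) and Saa3 6.6-fold (0.69), each in the top percent of liver probes. Saa4, with an SD of 0.22, and Orm2, with 0.24, lay above 70.0% and 74.8% of liver probes, whose median SD was 0.19.

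These liver values did not vary independently. Over the 20 mice, 93 relations between genes or between tissues were computed, with permutation tests of 100000 resamples and Benjamini-Hochberg adjustment over the 93, and 18 passed for both Pearson's r and Spearman's rho. Of these, 14 were among the 45 pairs within liver, all positive. A first group was formed by Saa1, Saa2, Saa3 and Lcn2, in which all 6 pairs passed. Saa1 and Saa2 had r = 0.968 and rho = 0.970 (both permutation p = 1e-05, the smallest that these resamples can give, adjusted p = 0.00012). Saa1 and Lcn2 had r = 0.861 and rho = 0.911, and Saa3 and Lcn2 r = 0.876 and rho = 0.812. Without the 2 mice farthest from the median of the first gene, these r were 0.957, 0.868 and 0.846, and with slide and dose means removed they were 0.985, 0.925 and 0.901. Saa1 and Saa2 are close paralogs, whose transcripts may hybridize to each other's probe, so their r cannot be told apart from cross-hybridization.

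The livers with high Lcn2 belonged to different doses. Lcn2 exceeded 2 in mouse 2 (D0, 2.89), mouse 7 (D1, 2.38) and mouse 16 (D3, 2.53), while the other 4 D3 livers lay between -0.87 and -0.18. The same 3 mice held the 3 highest Saa3 ratios, at -0.42, -1.80 and -1.61. Their neutrophil marker means in liver were 0.23, 0.06 and -0.01, inside the range of the other livers (0.02 to 0.40) or below it, and their hepatocyte marker means were 7.70, 8.16 and 8.23.

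A second group in liver was formed by Orm1, Orm2, Hp and Hpx, the orosomucoids and the haemoglobin and haem scavengers, in which all 6 pairs passed. Hp and Hpx had r = 0.916 and rho = 0.845, and Orm2 and Hpx r = 0.883 and rho = 0.833. With slide and dose means removed, r fell to 0.713 and 0.747, while Orm1 and Orm2 went from 0.796 to 0.659 and no longer passed (adjusted p = 0.0699 for rho by permutation), the other 5 pairs passing. The 2 groups were linked in the raw values by Saa1 with Orm2 (r = 0.692) and Saa1 with Hpx (r = 0.593). Those links did not hold without mice 8 and 19 (0.576 and 0.445, the adjusted p of Pearson's r being 0.0530 and 0.170), but were 0.689 and 0.693 with slide and dose means removed. In that setting 5 further links between the groups passed, Saa2 with Orm2 (0.692) and Hpx (0.694), Saa3 with Orm2 (0.682) and Hpx (0.711), and Lcn2 with Hpx (0.693). The division into 2 groups is thus a description of the values as measured. Permutation of values with slide and dose means removed did not allow for their removal, so passing was too easy in that setting. As measured, Saa4 and Apcs passed with no other gene. Apcs passed with Lcn2 when slide and dose means were removed (r = 0.548), and with normexp background correction Apcs passed with Hpx (0.598) and Saa4 with Orm2 (0.678). Lcn2 and Hp had r = 0.09 as measured and 0.344 with slide and dose means removed.

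**Figure D3:**
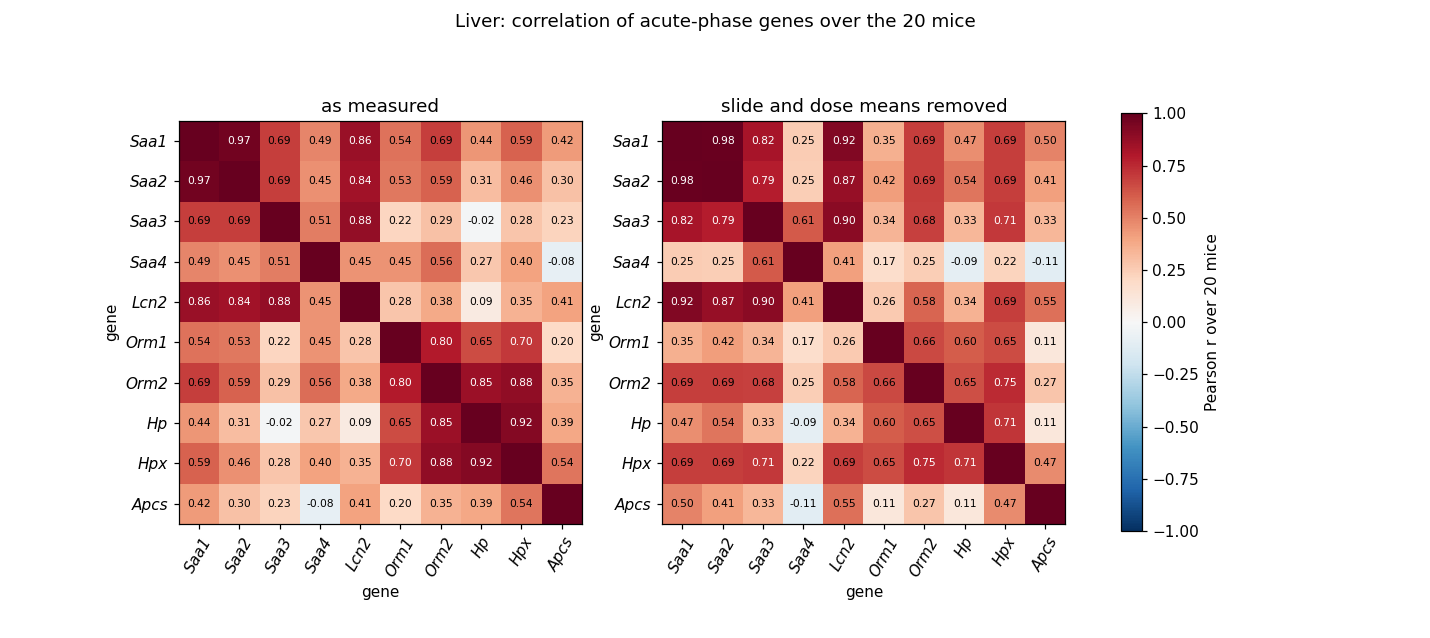
Pearson's r over the 20 livers between each pair of acute-phase genes, as measured (left) and after slide and dose means were removed (right). Saa1, Saa2, Saa3 and Lcn2 form a block of high r in both panels, while the block of Orm1, Orm2, Hp and Hpx is paler on the right.

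Values also differed between slides, and slide cannot be told apart from the set of mice on it. Within doses, an F test of slide in limma called 56.6% of lung probes, 26.5% of liver probes and 37.4% of forestomach probes at an adjusted p of 0.05 or less. Among the acute-phase genes it called 2 of 5 in lung (Saa1 and Hp), 3 of 10 in liver (Orm2, Hp and Hpx) and 3 of 7 in forestomach (Saa3, Orm1 and Orm2). Hp in lung and in liver had the lowest adjusted p, while Hp in forestomach was not called (adjusted p = 0.226 by the F test). The slide means of Saa3 in forestomach ran from -4.90 to -2.75 (adjusted p = 2.9e-05), a wider span than that of Hp in lung or liver. The slide means of Hp ran from 5.29 to 6.54 in lung (adjusted p = 3.3e-06) and from 6.54 to 7.77 in liver (adjusted p = 4.2e-06). On the lung slide with the highest mean the 4 arrays, 1 from each dose, read 6.5 to 6.6. The livers of those same 4 mice lay together on the liver slide with the lowest mean and read 6.44 to 6.85.

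Hp in lung and Hp in liver were inversely related over the 20 mice (r = -0.726, rho = -0.702, adjusted p = 0.0023 and 0.0063 by permutation), the only one of 17 relations of a gene with itself between tissues that passed. Once slide and dose means were removed, r was 0.003. None of Saa1, Saa3 or Lcn2 passed between tissues, Lcn2 in lung and liver having r = 0.008 and Saa3 r = 0.298. In lung no pair of the 5 tested genes passed, and 4 did with slide and dose means removed, the highest being Saa1 with Hpx (0.779). As given above, passing was too easy in that setting. In forestomach Orm1 and Orm2 had r = 0.969 (0.927 with slide and dose means removed), and like Saa1 and Saa2 they are close paralogs. Saa3 was inversely related there to Orm1 (r = -0.684) and Orm2 (r = -0.658), but r was -0.243 and -0.190 once slide and dose means were removed. In forestomach Saa3 was well above background on 9 of the 20 arrays, Orm1 on 12 and Orm2 on 13, so many of these values lie at background. Of the 3 relations that passed in forestomach, 1 was kept without the 2 mice farthest from the median.

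**Figure D4:**
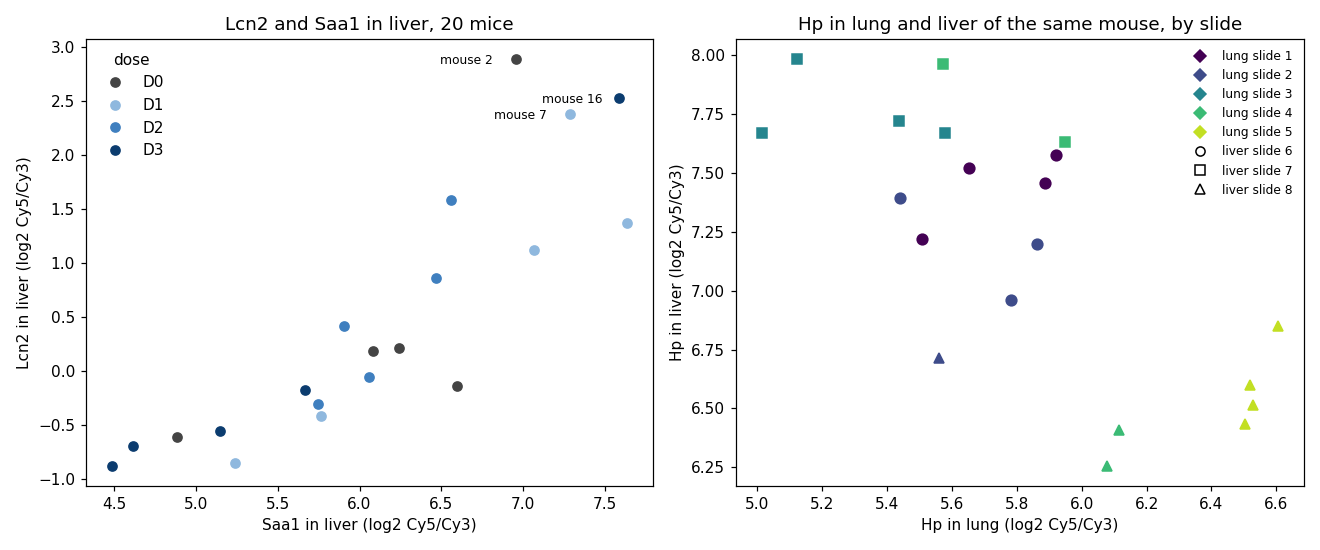
Left, Lcn2 against Saa1 in the 20 livers (log2 Cy5/Cy3), coloured by dose, with mice 2, 7 and 16 marked. Right, Hp in lung against Hp in liver of the same mouse, coloured by lung slide and shaped by liver slide, where arrays of a slide lie close together.

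In each tissue the gene with the widest within-dose spread was set beside all genes with a symbol, by the r of within-dose deviations over 20 arrays, as a description. In liver Lcn2 was most like Saa3 (0.901), Gapdh (0.877), Saa1 (0.872), Saa2 (0.855), Gprc5a (0.844), Isyna1 (0.815), Cep55 (0.814) and Baz1b (0.776). Among 12858 genes, the 4 most like Lcn2 were thus the other genes of its group and Gapdh, a glycolytic enzyme often used as a reference gene. In lung Hpx was most like Slc27a5, Cyp2d26, Mup2, Mup4 and Gc (r from 0.967 to 0.982), and in forestomach Hpx was most like Serpinc1, Fgg, Fgb, Gc and Pzp (r from 0.927 to 0.958). These genes are known chiefly for expression in hepatocytes.

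In lung and in forestomach, 1 array each stood apart both for Hpx and for the hepatocyte markers. In lung of mouse 20, Hpx read 3.75, Orm1 1.77, Orm2 1.82 and Saa2 1.15, each the highest of the 20 lungs, and all 10 hepatocyte markers were well above background there, 9 of them at their highest. Of the 10 hepatocyte markers, 6 passed the background filter in lung, so the presence of these 6 is not particular to mouse 20. In the other 19 lungs Hpx lay between -0.37 and 0.51. The mouse with the highest Hpx of its dose group also had the highest hepatocyte marker mean in 3 of 4 lung groups, D0 being the exception. In forestomach of mouse 15, Hpx read 4.75, Saa2 3.92, Orm2 3.27, Orm1 2.82 and Saa1 1.84, each the highest of the 20 forestomachs, and 8 of 10 hepatocyte markers were at their highest. Saa3, at -4.65, and Lcn2, at -1.19, were inside the range of the other forestomachs on that array. In forestomach the same mouse was highest for both in 2 of 4 groups, D2 and D3. The part of hepatocyte RNA in these values was not tested.

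**Figure D5:**
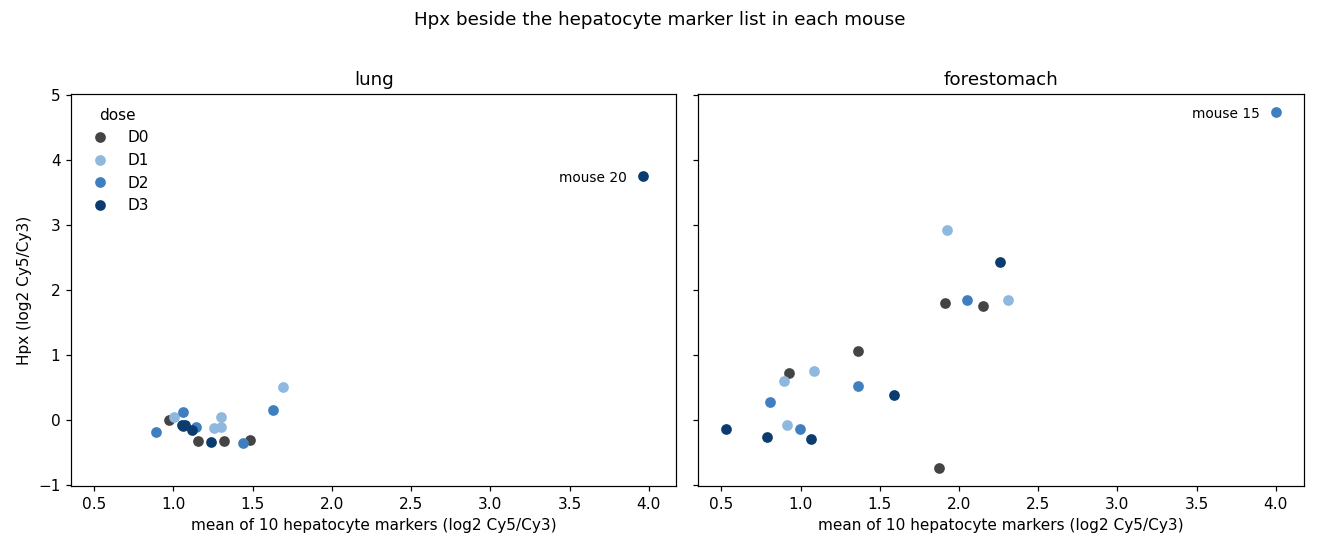
Hpx (vertical axis) against the mean of 10 hepatocyte markers (horizontal axis), both as log2 Cy5/Cy3, in the 20 lungs (left) and 20 forestomachs (right), coloured by dose. Mouse 20 in lung and mouse 15 in forestomach stand apart on both axes.

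Other genes of the acute-phase response gave the setting of the D3 differences. Of 20 further positive acute-phase proteins, 18 were tested in liver, of which 2 were nominally higher and 16 lower at D3, with 0 called and a median of -0.22. The widest difference was that of Fgl1, a hepatocyte-secreted fibrinogen-like protein, at -0.77 ± 0.33 (adjusted p = 0.361). All 10 negative acute-phase proteins, which fall in inflammation, were nominally lower too, with 0 called, a median of -0.19 and Trf, which encodes transferrin, at -0.25 ± 0.27. Of 10 hepatocyte markers 3 were higher and 7 lower, with a median of -0.08 and Apob, which encodes apolipoprotein B, at -0.36 ± 0.20, and all 8 macrophage markers were nominally higher, with a median of 0.20 and Lyz2, which encodes lysozyme, at 0.47 ± 0.13 (adjusted p = 0.167). Of the cytokines, receptors and signalling genes that drive the response, 16 of 20 were tested in liver, 6 higher and 10 lower, with a median of -0.02 and Cebpa, a C/EBP factor of hepatocytes, at 0.41 ± 0.15 (adjusted p = 0.270). Receptors and partners of these proteins were nominally higher in 8 of 8 tested cases, with a median of 0.10 and Lrp1, which takes up haem bound to hemopexin, at 0.19 ± 0.12.

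In lung at D3, 14 of 15 tested positive acute-phase proteins were nominally higher (median 0.28, Fgg 0.96 ± 0.74) as were 5 of 6 negative ones (median 0.52, Ahsg 1.04 ± 0.64), with 0 called in either list, and all 6 tested hepatocyte markers were higher as well (median 0.33, with Ahsg again the widest), the D3 group holding mouse 20. In forestomach at D3, 10 of 14 positive and 8 of 9 negative proteins were nominally lower (medians -0.14 and -0.53), with 0 called and the widest differences in Serpina1a (-1.42 ± 1.2) and Rbp4 (-0.82 ± 0.63). Beside them, 7 of 8 hepatocyte markers were lower (median -0.30, Cyp2e1 -1.34 ± 0.85) and 6 of 7 fat cell markers (median -0.82, Cfd -1.71 ± 1.59). The cytokine and signalling genes had medians of 0.02 in lung (Cebpd -0.41 ± 0.18) and -0.10 in forestomach (Socs3 -0.44 ± 0.21), with 0 called. The receptors and partners had medians of -0.02 in lung (Scarb1 0.34 ± 0.13) and -0.04 in forestomach (Lrp1 -0.40 ± 0.20), with 0 called.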

How the data were processed

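The deposited scanner files held median spot and background intensities and processed intensities of 60 2-colour Agilent arrays, made per the file headers with Feature Extraction 10.7.3.1. The authors also deposited a table of normalized log2 ratios, which had r of 0.992 to 0.999 with the ratios computed here, and whose array medians were -0.0413 to -0.0143. Dyes were not swapped. Log2 Cy5/Cy3 of median signals, without background subtraction, was normalized by loess within arrays in limma 3.58.1 (R 4.3.3), with 3671 control spots at weight 0. Of the values, 0.0361% were flagged as non-uniform and left out, and none was saturated. Tests in a tissue kept probes whose Cy5 signal was well above background on 5 or more of its 20 arrays, and tests across tissues kept probes that passed in any. Probes were named through RefSeq accessions (26413 of 55681 matched, 47.4%).

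Differences were tested with lmFit and eBayes (two-sided, Benjamini-Hochberg) with calls requiring 1.5-fold or more and an adjusted p up to 0.05, the latter alone for slopes. The fits were tested on simulated data. The number of arrays limits the precision, and nothing in the sources says more of replicates than that each is 1 mouse. Same-numbered arrays are tissues of 1 mouse, as the labels give it, and their deviations from group means had a median r of 0.0713 for lung with liver, 0.253 for lung with forestomach and 0.0109 for the remaining pair. The lung and forestomach arrays of a mouse lay on the same slide, so mouse and slide cannot be told apart in the r of 0.253. Each dose took a fixed position on every slide, so position and dose cannot be told apart. The members, lists and tests were chosen with earlier results of these data known. All members were named, together with the 5 genes most like the most variable member of each tissue and, for each list whose D3 differences are described, the gene with the widest one in that tissue. Figures were drawn with matplotlib 3.10.9 in Python 3.11.15.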

Additional observations from a re-analysis of the deposited data

Results flagged for a closer look

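A search for 1 mouse far from the other 4 of its dose group covered 88 combinations of gene, tissue and dose and found 12, where chance gives about 4.4 (5%). In liver, mouse 2 (D0) stood apart for Lcn2 at 2.89 (others -0.61 to 0.21) and Saa3 at -0.42 (others -3.14 to -2.43), and mouse 16 (D3) for Lcn2 at 2.53 (others -0.87 to -0.18) and Saa3 at -1.61 (others -2.99 to -2.92). Also in liver, Orm1 of mouse 19 (D3) was 8.15 (others 8.82 to 8.93) and Orm2 of mouse 10 (D1) was 8.62 (others 9.03 to 9.13). In lung, Hpx was 3.75 in mouse 20 (D3, others -0.34 to -0.08) and 0.51 in mouse 8 (D1, others -0.13 to 0.05). In forestomach, mouse 15 (D2) stood apart for Saa1 at 1.84 (others -0.74 to -0.14) and Orm1 at 2.82 (others -0.09 to 0.75), mouse 19 (D3) for Hpx at 2.44 (others -0.29 to 0.38) and mouse 18 (D3) for Lcn2 at -1.0 (others -1.30 to -1.23).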

How the results depend on the processing

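No value changed from a called direction to the opposite one. For the number of members called, every dose comparison and every difference of the D3 change stayed at 0 under each alternative run, as did slopes except in liver, where slide as a block gave 1 (Saa4). Between lung and forestomach at D0 the count ran from 2 (without D0 mouse 5) to 4 when 1 mouse was left out. With mouse as a replicate block, 10, 4 and 10 members were called for lung and liver, lung and forestomach, and liver and forestomach, as without it, and the pairing changed no count of members. Lcn2 between lung and liver was lost with processed signals (adjusted p = 0.0638) and with no filter (0.0694). Hpx between lung and forestomach was called with processed signals (-2.59, adjusted p = 0.0133) and over the 4 doses (-0.90, adjusted p = 0.0060). Over all probes, D3 in liver had 0 calls, but 24 with slide as a block, 5 with processed signals, 4 with all 60 arrays in 1 model and 0 to 29 with 1 mouse left out. D3 in lung had 0, but 21 with slide as a block. D1 in forestomach had 0, but 698 with all 60 arrays in 1 model. The slope in liver had 62, but 678 with slide as a block, 119 with processed signals and 0 to 239 with 1 mouse left out, and that in lung 0, but 95 with slide as a block. Of the 18 relations, 14 were kept without the 2 most extreme mice and 14 with slide and dose means removed, where passing was too easy as given above. The causes were not tested. Each gene had 1 probe, so other probes were not run. Scaling between arrays by Aquantile leaves ratios as they are. Genes near background outside liver, such as Saa4, have at most bounds.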
